A study of Saccharomyces cerevisiae with 16 samples.

Results

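The Mediator kinase module genes of budding yeast are SSN3, SSN8, SRB8 and SSN2, here taken by gene symbol as 4 probes among 6388 gene probes, 5326 of which carry 1 symbol. SSN3 (YPL042C) encodes the kinase, known as CDK8 in the labels. SSN8 (YNL025C) encodes its partner cyclin C, SRB8 (YCR081W) encodes the subunit known as Med12, and SSN2 (YDR443C) encodes the subunit known as Med13. No measured value entered the choice.

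RNA of 8 strains was measured on 16 spotted arrays of 2 colours, 2 for each strain, and every array set the strain against RNA from the same pool, called refpool in the labels, with no genotype stated there. The strains carried the FCP1 allele fcp1-mut-tag-flag, whose change the labels do not state, or one of the truncations labelled fcp1-trunc-1:713-tag-flag, 1:666, 1:609 and 1:594. In 3 further strains the truncation 1:666, 1:609 or 1:594 was joined with cdk8-del, a deletion of the kinase gene. All 8 strains carried a FLAG tag on the FCP1 allele, so no strain had an untagged FCP1 by its label. Growth was to mid-log phase, and the labels name no oxidant or other treatment. On a arrays the strain RNA was labelled with Cy3 and on b arrays with Cy5, and RNA of strains was extracted with another protocol than RNA of the pool. The labels do not say whether the a and b arrays of a strain came from separate cultures, so p-values measure the spread between arrays, which may be technical. That spread also holds the difference between letters, which is the swap of dyes as well. The main fit leaves this difference in the spread, and a second fit, called the replicate block here, takes it out.

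Mediator carries regulatory signals from activators and repressors to RNA polymerase II. Its kinase module binds the core complex reversibly: cyclin C activates the kinase, Med12 ties the cyclin and kinase pair into the module, and Med13 links the module to core Mediator. In yeast the module is known for repression of stress and cell-type genes, and cyclin C leaves the nucleus and is destroyed under oxidative stress. FCP1 codes for a phosphatase of the polymerase's C-terminal domain, which is also a substrate of Cdk8.

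The arrays measured nearly all genes: between 96.4% and 98.8% of probes were above 3 standard deviations (SD) of their local background in the strain channel. A call needed an adjusted p (Benjamini-Hochberg, limma) under 0.01 together with a fold over 1.7, which is 0.77 on the log2 scale; both limits come from the description of the series. The FCP1 probe separated the strains: its log2 strain over reference was between -0.31 and -0.20 in fcp1-mut, 1:713, 1:666 and 1:666 cdk8-del, and between -3.49 and -2.77 in the other 4. Whether the probe lies in the stretch removed from FCP1 in those 4 strains is not known, so its values are not read as amounts of FCP1 RNA. LYS2, a lysine synthesis gene used as a marker, was higher than the reference by 2.73 to 3.40 in those same 4 strains. MET17, a sulphur amino acid gene used as a marker, was between -4.92 and -4.51 in all 5 strains with CDK8 and in 1:609 cdk8-del, with no call in 1:666 cdk8-del or 1:594 cdk8-del. The cdk8-del comparisons in 1:666 and 1:594 therefore also differed in MET17, by 4.46 and 4.10 on the log2 scale, and the truncation comparisons of 1:609 and 1:594 with 1:713 also differed in LYS2. The part of these marker differences in the values below was not tested.

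SSN3 was the targeted gene, and on all 6 cdk8-del arrays its probe stayed below the limit for background. In the strain channel its net signal over local background was 1.21 and 0.458 background SD on the a and b arrays of 1:666 cdk8-del. It was 2.17 and 1.40 SD in 1:609 cdk8-del and 2.10 and 1.72 SD in 1:594 cdk8-del. On the 10 arrays of strains with CDK8 it was between 19.5 and 57.8 SD, with a median of 28.4 SD. The reference channel was above background on all 16 arrays, at 13.2 to 73.5 SD, so the probe detected its gene on every array. No cdk8-del array overlapped any array with CDK8, as the labels would have it. Less SSN3 RNA per cell and fewer cells with it cannot be told apart in RNA of a whole culture.

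**Figure D1:**
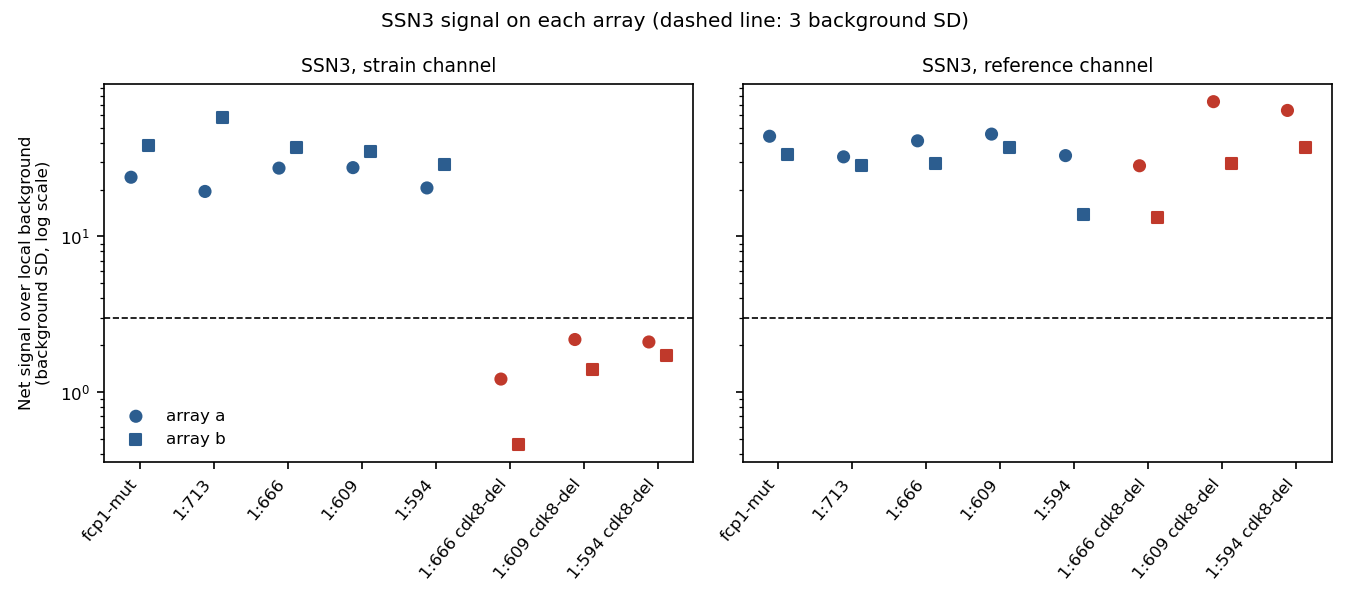
Net SSN3 signal over local background on each of 16 arrays, in background standard deviations on a log axis, for the strain channel (left) and the reference channel (right). Blue points are strains with CDK8, red points are cdk8-del strains, and the dashed line is the 3 SD limit; the 6 cdk8-del arrays lie between 0.458 and 2.17 SD in the strain channel and all other points at 13.2 SD or more.

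Because the deletion strains were not measured above background, only a lower bound on the SSN3 fold can be given. Each bound sets the brighter channel against the dimmest signal that counts as above background on the deletion arrays. Where the normalised SSN3 level was itself higher than that, as on the a array of each deletion strain, the SSN3 level was used. Set against the reference, SSN3 in 1:666 cdk8-del was at least 2.33-fold lower. The bound was at least 3.11-fold lower for 1:609 cdk8-del and at least 3.51-fold lower for 1:594 cdk8-del. No test was run on the bounds. The fitted log2 differences from the reference, which limma tests and which rest on signal below background, had adjusted p of 1.97e-05, 4.51e-06 and 1.29e-06. Against the same truncation with CDK8 the strains sit on different arrays, so the bound was computed from channel levels and, as an addition made after seeing the data, from ratios to the reference, and the lower of both is given. It was at least 2.24-fold lower in 1:666, where the channel levels alone gave 2.67, at least 2.60-fold lower in 1:609 and at least 2.57-fold lower in 1:594. The fitted log2 differences from the same truncation, which also rest on signal below background, had adjusted p of 5.97e-04, 4.89e-04 and 1.21e-04 in limma. The deletion was the labelled genotype, so these calls check the labels and are no finding.

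Calls in these comparisons were uncommon over the genome. Against the reference, 3.91% of 6388 probes were called in 1:666 cdk8-del, 3.73% in 1:609 cdk8-del and 4.57% in 1:594 cdk8-del. For cdk8-del against the same truncation with CDK8, the shares were 3.99% in 1:666, 1.63% in 1:609, 2.14% in 1:594 and 2.71% for the average of the 3. In all 7 comparisons 1 of the 4 module genes was called, SSN3. Median centring in place of lowess ended the 3 SSN3 calls against single truncations, with adjusted p between 0.0384 and 0.0815, and kept the call on their average (adjusted p = 9.87e-04).

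The measured log2 ratios of SSN3 in the deletion strains rest on signal below background and on the offset added before the logarithm. They were -1.50 and -1.20 on the a and b arrays of 1:666 cdk8-del, -1.90 and -1.48 for 1:609 cdk8-del, and -1.97 and -1.95 for 1:594 cdk8-del. No order among the 3 deletion strains is read from them. In the authors' deposited table the log2 values of the same 6 arrays ran from -2.13 to -1.23.

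With CDK8 present, SSN3 was near the reference in all FCP1 alleles. Its log2 strain over reference was -0.054 and 0.13 on the a and b arrays of fcp1-mut, and -0.074 and 0.20 for 1:713. It was -0.17 and 0.067 for 1:666, -0.30 and -0.0083 for 1:609, and -0.31 and 0.030 for 1:594. The b array was above the a array in each of these strains, and in the values computed here the ranges of all 5 strains overlapped. By their means the order from low to high was 1:609, 1:594, 1:666, fcp1-mut and 1:713, and each step of at most 0.090 was below its standard error of 0.18. The replicate block lowers that error to 0.076, which the steps of 0.086 and 0.090 on either side of 1:666 exceed. None of 8 comparisons without cdk8-del called SSN3 in limma, none had an unadjusted p under 0.05, and all 8 intervals lay within 1.7-fold of no difference. The largest difference was 1:609 against 1:713, at -0.22 on the log2 scale (95% interval -0.61 to 0.18, adjusted p = 0.51 in limma). Under the replicate block, 3 of the 8 had an adjusted p under 0.05 and none was called: 1:609 against 1:713 (0.037), 1:609 against the reference (0.0269) and 1:594 against the reference (0.0429). The share of all probes at that limit under the block was not computed, so the count of 3 is not read as high or low. In the authors' deposited table the arrays of fcp1-mut and 1:713 lay between 0.027 and 0.058. They did not overlap those of 1:666, 1:609 and 1:594, between -0.29 and -0.054. How many of all probes separate the same strains there was not counted, so nothing particular to SSN3 is read from it. None of the 8 comparisons called SSN3 from that table.

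Those comparisons had few calls at any gene in the mildest alleles. Against the reference, 0.235% of probes were called in fcp1-mut, 0.172% in 1:713 and 0.626% in 1:666, and 3.12% in 1:609 and 2.25% in 1:594. Against 1:713, 0.047% were called in 1:666, 1.97% in 1:609 and 1.27% in 1:594. Blocking on the replicate letter moved the number of probes called from 15 to 23 in fcp1-mut, from 11 to 18 in 1:713, and from 3 to 12 in 1:666 against 1:713. No module gene was called in these 8 comparisons, with or without the block.

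**Figure D2:**
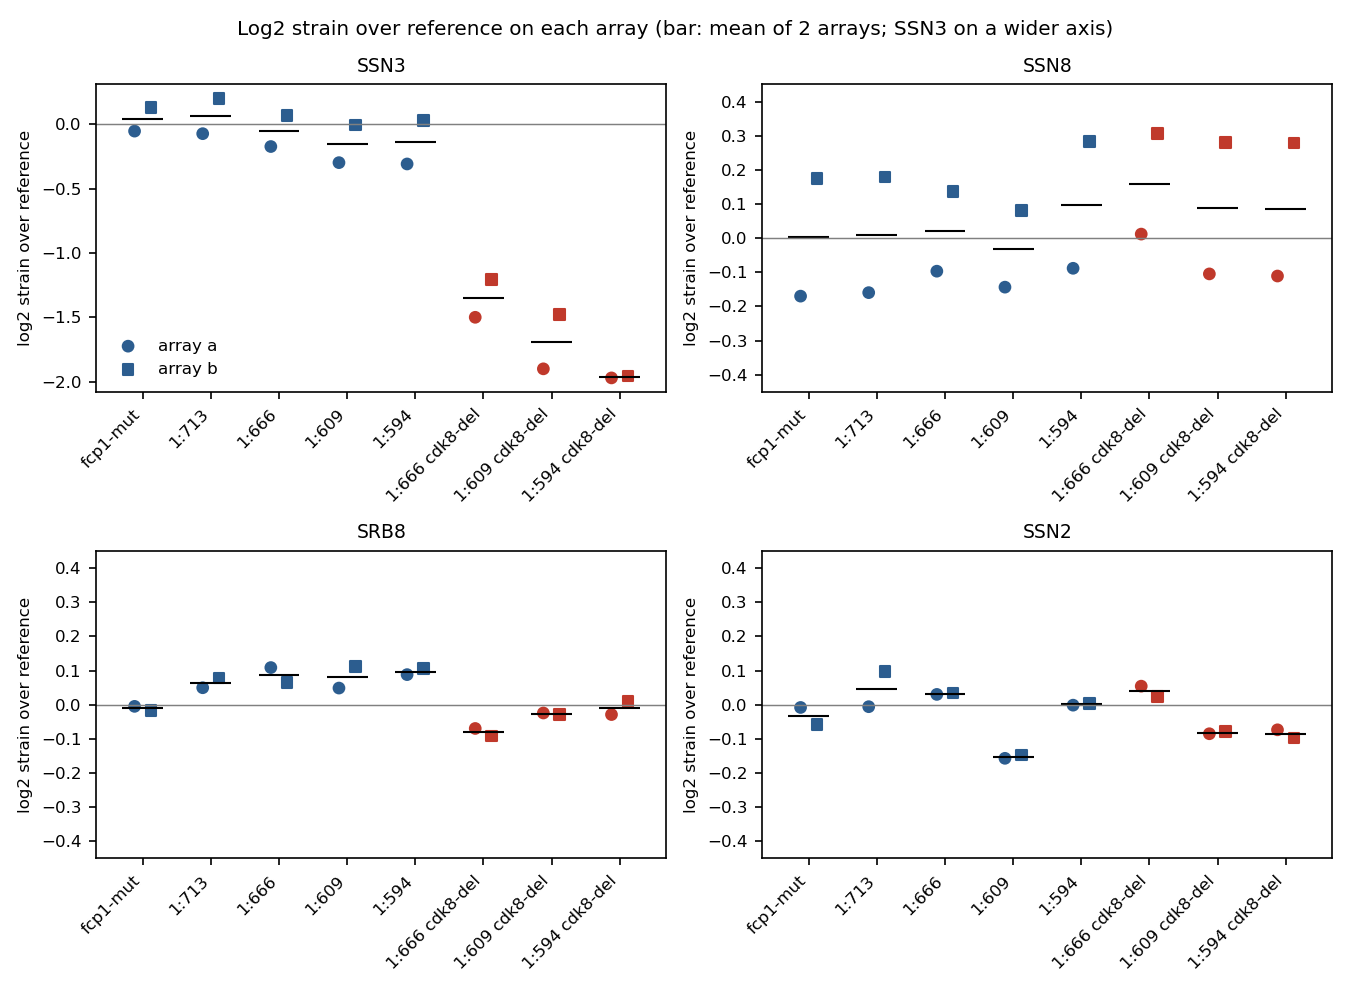
Log2 strain over reference of the 4 module genes on each of 16 arrays, circles for a arrays and squares for b arrays, with the mean of each strain as a bar. Red marks cdk8-del strains; SSN3 falls to between -1.97 and -1.20 on the 6 red points, and the other 3 genes stay between -0.17 and 0.31 on all arrays.

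SSN8, the cyclin C gene, did not pass the test in any of 18 comparisons in limma, and none had an unadjusted p under 0.05. Over all probes and the 18 comparisons, 1.82% of differences were called and 24.4% had an unadjusted p under 0.05. The log2 strain over reference of SSN8 was -0.17 and 0.17 on the a and b arrays of fcp1-mut, -0.16 and 0.18 for 1:713, and -0.097 and 0.14 for 1:666. It was -0.14 and 0.081 for 1:609 and -0.088 and 0.28 for 1:594. In the deletion strains it was 0.012 and 0.31 for 1:666 cdk8-del, -0.10 and 0.28 for 1:609 cdk8-del, and -0.11 and 0.28 for 1:594 cdk8-del. The strain with the highest mean was 1:666 cdk8-del, at 0.16, and the one with the lowest was 1:609, at -0.031. Neighbouring strains in that order overlapped throughout, and all 7 steps, up to 0.064, were smaller than their standard error of 0.21. The replicate block lowers that error to 0.053, which the steps of 0.064 and 0.061 exceed.

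The spread of SSN8 lay mostly between the letters. The b array was above the a array in 8 of 8 strains, by 0.32 on average on the log2 scale, and letter and dye orientation cannot be told apart here. In the authors' deposited table the b value was above the a value in 3 of 8 strains, with log2 values from -0.095 to 0.10. The cdk8-del difference of SSN8 averaged 0.081 ± 0.12 (SE) over the 3 truncations (95% interval -0.18 to 0.35, adjusted p = 0.70 in limma). It was 0.14 in 1:666, 0.12 in 1:609 and -0.014 in 1:594, with intervals that reached 0.60. The replicate block, which takes the letter out of the spread, narrowed the interval of the average to 0.014 to 0.15, above no difference, with an adjusted p of 0.0406 that missed the limit of 0.01. In 1:666 the interval became 0.022 to 0.26 (block adjusted p = 0.0577). Under the block 3 of 18 SSN8 differences had an adjusted p under 0.05, and none was called. The share of all probes at that limit was not computed, so the count is not read as high or low.

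SRB8, the Med12 gene, varied little between the 2 arrays of a strain in the values computed here. Its log2 strain over reference was -0.0049 and -0.016 for fcp1-mut and 0.050 and 0.078 for 1:713. It was 0.11 and 0.065 for 1:666, 0.049 and 0.11 for 1:609, and 0.088 and 0.11 for 1:594. In the deletion strains it was -0.070 and -0.091 for 1:666 cdk8-del, -0.024 and -0.029 for 1:609 cdk8-del, and -0.029 and 0.0088 for 1:594 cdk8-del. In these values both arrays of each cdk8-del strain lay below both arrays of the same truncation with CDK8. How many of all probes separate in this way was not counted, so nothing particular to SRB8 is read from it. The fcp1-mut arrays, which had CDK8, lay within the range of the cdk8-del strains. In the authors' deposited table the arrays with and without CDK8 overlapped in each truncation. There the a value was above the b value in 8 of 8 strains, with b minus a at -0.096 on average on the log2 scale.

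The cdk8-del difference of SRB8 was -0.17 in 1:666, -0.11 in 1:609 and -0.11 in 1:594 on the log2 scale, and averaged -0.13 ± 0.032 (SE; 95% interval -0.20 to -0.056). The adjusted p in limma was 0.013 for the average, which missed the limit of 0.01, and 0.00116 under the replicate block, which passed it, while the size was far below 1.7-fold. Of all probes, 55.3% had a smaller average difference in absolute size. The value was -0.028 (adjusted p = 0.60) from the authors' deposited log2 ratios and -0.032 (adjusted p = 0.55) with lowess within print-tip grids, and it turned to 0.092 when the arrays were scaled on external control spots, a scaling that moved the median of all genes by 0.21. In order of strain means, the 3 cdk8-del strains and fcp1-mut had the 4 lowest values, from -0.081 to -0.010. The other 4 strains lay between 0.064 and 0.097, with overlapping arrays from one to the next.

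SSN2, the Med13 gene, was lowest in 1:609. Its log2 strain over reference was -0.16 and -0.15 on the a and b arrays there, below all 14 other arrays. It was -0.0081 and -0.058 for fcp1-mut, -0.0059 and 0.097 for 1:713, 0.030 and 0.034 for 1:666, and -0.0014 and 0.0041 for 1:594. In the deletion strains it was 0.054 and 0.025 for 1:666 cdk8-del, -0.085 and -0.078 for 1:609 cdk8-del, and -0.074 and -0.097 for 1:594 cdk8-del. The mean in 1:609 was 0.067 below the next, 1:594 cdk8-del, a step close to its standard error of 0.058. The replicate block lowers that error to 0.047. How many of all probes set both arrays of 1 strain apart from all others was not counted, so nothing particular to SSN2 is read from it. In 1:609 against the reference, 22.2% of all probes had an adjusted p under 0.01 in limma.

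Neither test of SSN2 in 1:609 passed both limits, with or without the replicate block. Against the reference the difference was -0.15 ± 0.041 (SE; adjusted p = 0.0146 in limma), and against 1:713 it was -0.20 ± 0.058 (adjusted p = 0.0387). Under the replicate block the adjusted p in limma was 0.00178 and 0.00479. Both of these passed the limit of 0.01, while the size was far below 1.7-fold. Of all probes, 48.8% and 59.7% differed by less in those comparisons. The cdk8-del difference of SSN2 was 0.0073 in 1:666, 0.071 in 1:609 and -0.087 in 1:594, and averaged -0.0030 ± 0.033 (SE; 95% interval -0.077 to 0.071).

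Over SSN8, SRB8 and SSN2 together, none of 54 differences in limma was called. They ran from -0.20 to 0.16 on the log2 scale, 6 had an unadjusted p under 0.05 and 3 an adjusted p under 0.05. Over all probes and the 18 comparisons, 1.82% of differences were called and 24.4% had an unadjusted p under 0.05. Nothing particular to the 3 genes is read from the absence of calls. The 95% interval lay within 1.7-fold of no difference in 52 of 54, with the other 2 for SSN8. Under the replicate block, 12 had an adjusted p under 0.05 and none was called. The share of all probes with an adjusted p under 0.05 was not computed, with or without the block, so these counts are not read as high or low. These 3 genes were above background in both channels on all 16 arrays, at 10.8 SD or more.

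The 3 differences between cdk8-del effects in pairs of truncations called no module gene. Over all probes 0.0157% were called for 1:609 minus 1:666, 0.157% for 1:594 minus 1:666 and 0.125% for 1:594 minus 1:609. The replicate block moved those counts from 1 to 45, from 10 to 48 and from 8 to 13. For SSN3 both sides of each difference hold strains below background, so no fold is given. For SSN8, SRB8 and SSN2 the largest was -0.16 ± 0.082 (SE), for SSN2 in 1:594 minus 1:609 (adjusted p = 1 in limma).

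**Figure D3:**
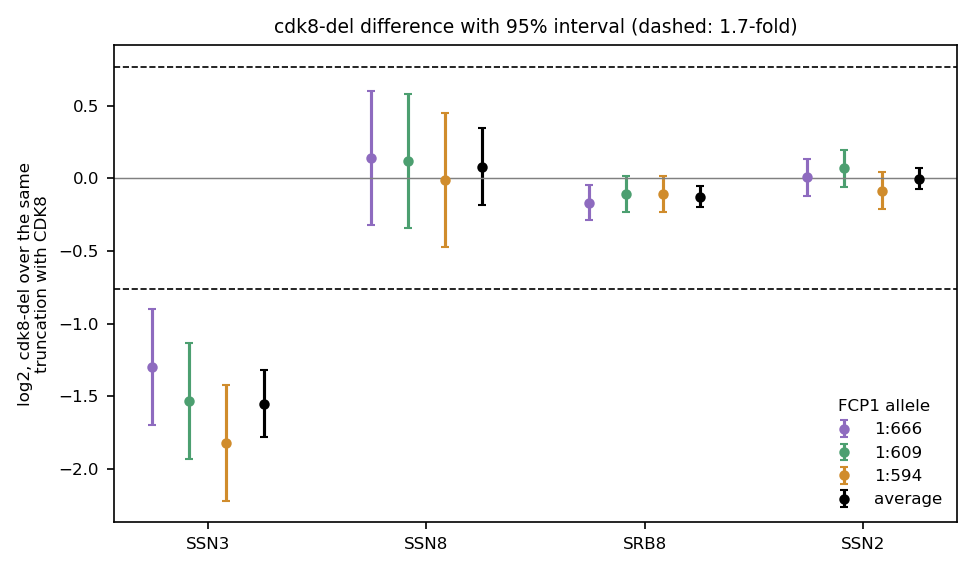
Log2 difference of cdk8-del from the same FCP1 truncation with CDK8, for the 4 module genes, with 95% intervals from the fit over 16 arrays, and dashed lines at 1.7-fold. The SSN3 points rest on signal below background in the deletion strains and are not folds; the intervals of SSN8, SRB8 and SSN2 all lie inside the dashed lines in this plot, widest for SSN8.

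The nearest 2 annotated genes on each side of each module gene were taken from the RefSeq order. Beside SSN3, probes were found for VPS16, a vacuolar sorting gene, NOP4, a ribosome biogenesis gene, and ISM1, a mitochondrial tRNA synthetase gene. None of their 54 differences was called in limma, and 3 had an unadjusted p under 0.05. Over all probes and the 18 comparisons together, 1.82% of differences were called, 8.92% had an adjusted p under 0.01 and 24.4% an unadjusted p under 0.05. In the 12 cdk8-del differences among them, values ran from -0.40 to 0.11 on the log2 scale. The low end was NOP4, which lies next to SSN3: its cdk8-del difference was -0.40 in 1:666, -0.32 in 1:609 and -0.087 in 1:594, and averaged -0.27 ± 0.14 (SE; adjusted p = 0.18 in limma). Over 28 alternatives the NOP4 average ran from -0.34 to -0.052, with adjusted p in limma from 0.00336 to 0.777 and no call. VPS16 averaged 0.055 and ISM1 -0.023.

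The neighbours of the other 3 genes were not called in limma either. An unadjusted p under 0.05 was found in 0 of 36 differences beside SSN8, 22 of 72 beside SRB8 and 20 of 54 beside SSN2. An adjusted p under 0.01, short of the fold limit, was found in 10 of the 72 and 7 of the 54. Over all probes and the 18 comparisons, 24.4% had an unadjusted p under 0.05, 8.92% an adjusted p under 0.01, and 1.82% were called. Beside SSN8, whose probed neighbours were CRZ1 and SAM50, the cdk8-del differences ran from -0.0090 to 0.051. Beside SRB8, those of PAT1, PTC6, AHC2 and TRX3 ran from -0.057 to 0.42. Beside SSN2, APT2 had the largest of all, at -0.71 ± 0.13 (SE) in 1:666 (adjusted p = 0.00315 in limma), just inside the 1.7-fold limit, and -0.49 on average. SSN2 itself, next to it, was 0.0073 in the same comparison.

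**Figure D4:**
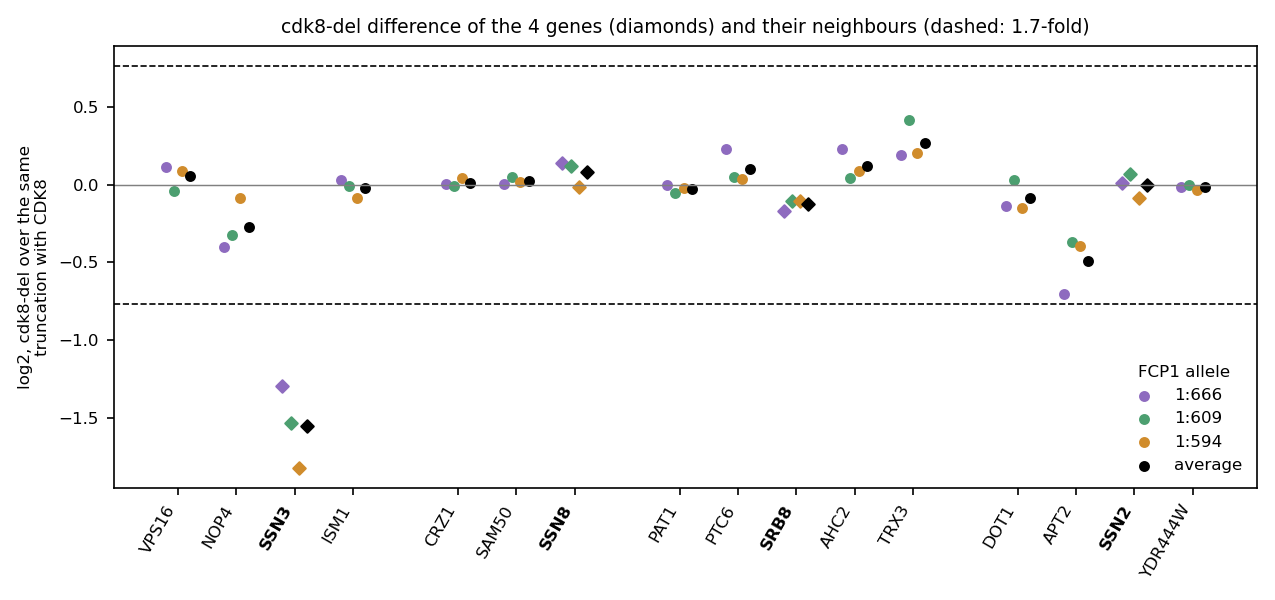
Log2 difference of cdk8-del from the same truncation with CDK8 for each module gene (diamonds, bold names) and the probed genes within 2 places of it in chromosome order, coloured by FCP1 truncation. SSN3 alone lies outside the dashed 1.7-fold lines; NOP4 reaches -0.40 and APT2 -0.71.

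The module acts with the rest of Mediator, which was described by 3 lists of subunits. The head, which contacts the polymerase, had 8 genes with a probe, the middle 7, and the tail and scaffold, which activators bind, 6. None of these 21 genes was called in any of 378 differences in limma, where 60 had an unadjusted p under 0.05 and 10 an adjusted p under 0.01, against 24.4% and 8.92% of all probes over the same comparisons. With 1.82% called over all probes, nothing particular to these genes is read from the count. Their cdk8-del differences ran from -0.27 for NUT2, a middle subunit, in 1:594 to 0.30 for SRB2, a head subunit, in 1:609. The median of the average cdk8-del difference was 0.052 for the head, -0.041 for the middle and -0.075 for the tail and scaffold, against -0.0050 over all probes. The values of SSN8, SRB8 and SSN2 given above, from -0.13 to 0.081, lay inside the range of these subunits, -0.16 to 0.18. SSN3 alone of the Mediator genes listed was called.

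Other enzymes that act on the polymerase's C-terminal domain were also listed. The 8 probed genes of the other kinases and their partners, which include KIN28, CTK1 and SGV1, had 0 calls in 144 differences in limma. An unadjusted p under 0.05 was found in 23 and an adjusted p under 0.01 in 1. Over all probes and comparisons, 1.82% were called, 24.4% had an unadjusted p under 0.05 and 8.92% an adjusted p under 0.01. The median average cdk8-del difference of the 8 genes was -0.080. Among 5 probed phosphatase genes the 6 calls were all of FCP1, in the strains with 1:609 or 1:594. Because the place of the FCP1 probe relative to the truncations is not known, these calls are not read as changes in the amount of FCP1 RNA. FCP1 did not pass the test for cdk8-del in any truncation, with the largest value at -0.66 ± 0.20 (SE; adjusted p = 0.0706 in limma) in 1:594. The replicate block added 1 call of FCP1, for the cdk8-del effect in 1:594 minus that in 1:609 (-0.96, adjusted p = 0.00109 under the block and 0.547 without it).

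The next lists hold genes reported downstream of the module. Of 7 probed activators reported as Cdk8 substrates, 1 of 126 differences was called: TEC1, a filamentation activator, fell by 0.86 on the log2 scale in 1:609 against the reference (adjusted p = 1.34e-06 in limma), a comparison in which 3.12% of all probes were called. An adjusted p under 0.01 was found in 29 of the 126, the 1 called among them, against 8.92% over all probes and comparisons. None was called for cdk8-del, where the medians were -0.036 in 1:666, 0.15 in 1:609 and -0.0018 in 1:594. The following 3 were picked after their values were seen. The average cdk8-del difference was 0.28 ± 0.043 (SE) for MSN2, a general stress activator, and 0.28 ± 0.045 for TEC1. It was -0.44 ± 0.099 for PHD1, also a filamentation activator. All 3 had adjusted p under the limit but a size under 1.7-fold.

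Of 9 genes whose repression is reported to need the module, 0 of 162 differences were called in limma, 18 had an unadjusted p under 0.05 and 4 an adjusted p under 0.01. Over all probes and comparisons the shares were 1.82%, 24.4% and 8.92%. The median average cdk8-del difference of the 9 genes was 0.00034. The ends were picked after their values were seen: STE2, the alpha-factor receptor gene, averaged 0.36 ± 0.073 (SE) and SUC2, the invertase gene, -0.26 ± 0.096. Of 8 probed genes that handle cyclin C in oxidative stress, 0 of 144 differences were called in limma. An unadjusted p under 0.05 was found in 14 and an adjusted p under 0.01 in 6, against the same shares over all probes. The median average cdk8-del difference of the 8 genes was 0.13. ASK10, whose product takes part in cyclin C destruction, was at the high end, also picked after its values were seen. Its cdk8-del difference was 0.55 in 1:666, 0.32 in 1:609 and 0.29 in 1:594, and averaged 0.39 ± 0.048 (SE; adjusted p = 1.69e-04 in limma), again below 1.7-fold.

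**Figure D5:**
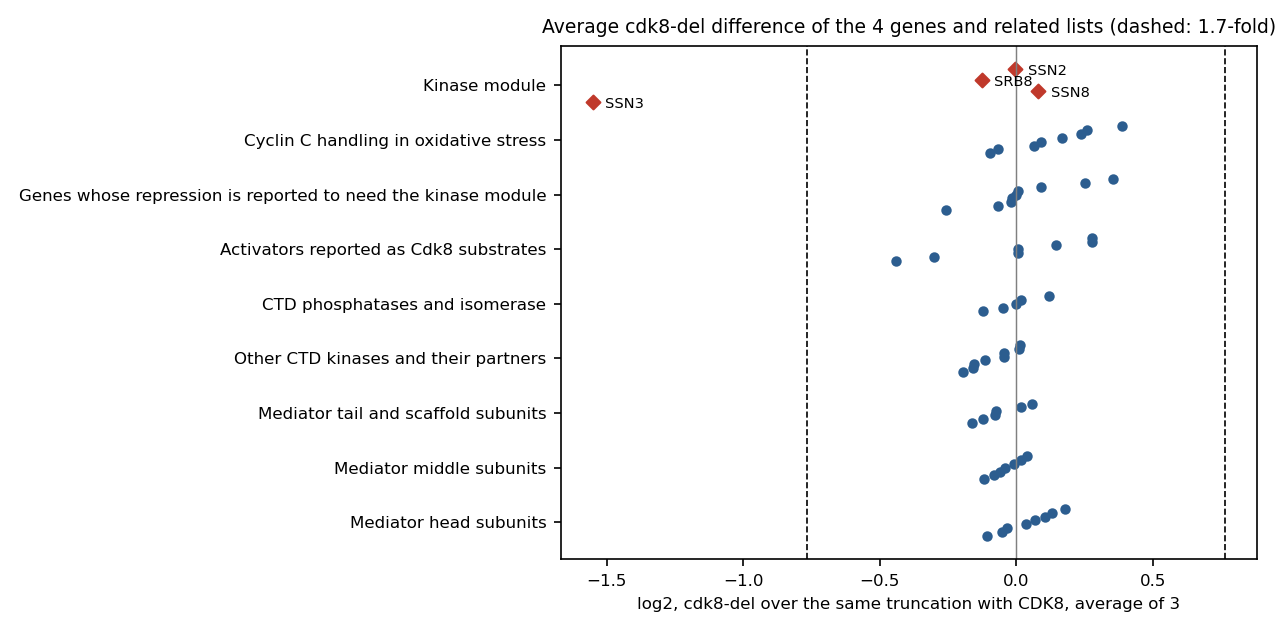
Average log2 difference of cdk8-del from the same truncation with CDK8 over 3 truncations, for the 4 module genes (red diamonds) and the genes of 8 related lists (blue points), with dashed lines at 1.7-fold. Only SSN3, at the left and below background in the deletion strains, lies outside the lines.

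The genes whose pattern was most like each member were ranked by Pearson's r over the 8 strain means, among 1497 or 1498 probes that varied by at least 0.5 and were above background on at least 10 arrays. The r values describe 8 points that share a reference and carry no p. For SSN3 the r mostly sets the 3 deletion strains, whose SSN3 values are below background and depend on the offset, against the 5 strains with CDK8, so the ranking among probes of near-equal r is not read. The rule named NMD5, a nuclear transport gene, and RPA135 and RPA190, the largest subunits of RNA polymerase I (r of 0.98 or above). In the cdk8-del strains NMD5 was between -0.51 and -0.37, RPA135 between -0.44 and -0.36 and RPA190 between -0.28 and -0.21. With CDK8 all 3 lay between -0.042 and 0.24. The rule's opposite was POX1 (r = -0.987), the fatty acyl-CoA oxidase gene, at 0.43 to 0.58 in the cdk8-del strains and -0.12 to -0.034 with CDK8. None of the 4 was called for the average cdk8-del difference, the largest of which was 0.56 ± 0.040 (SE) for POX1, though all were past the adjusted p limit in limma and short of 1.7-fold. POX1 was called with plain background subtraction, at 1.37, and with external control scaling, at 0.78.

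For the other 3 members the likeness rests on small ranges, from 0.18 to 0.20 on the log2 scale across the 8 strains. SSN8 was most like MSS51 (r = 0.964), HOG1 (r = 0.961) and ECM38 (r = 0.940), and most opposite to UTP30 (r = -0.953). SRB8 was most like TAE1 (r = 0.973), AAP1 (r = 0.968) and ELP3 (r = 0.963), and most opposite to ADH1 (r = -0.965), the alcohol dehydrogenase gene. ADH1 had an average cdk8-del difference of 0.79 ± 0.093 (SE), the single call among these 16 genes, which 7 of 28 alternatives ended, at the lowest with 0.65 under lowess within print-tip grids. SSN2 was most like CTR2 (r = 0.925), YPR158W-A (r = 0.923) and RTC4 (r = 0.916), and most opposite to PBP4 (r = -0.877).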

How the data were processed

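Each array holds 15552 spots, 12776 of them for 6388 gene probes with 2 spots each. Per the file headers, the deposited scanner files give each channel's mean intensity per spot and the median intensity of its local background, unsubtracted. The authors' deposited matrix holds log2 ratios, scaled to total mRNA by the account in the series record. Set against the scanner values its direction was strain over reference (correlations 0.621 to 0.977) and its column medians ran from -0.0130 to 0.0182. The handling of background in it is not stated.

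Here, normexp (offset 50) corrected the intensities, lowess (span 0.4, 3 iterations) over gene spots scaled the log2 ratios within an array, all ratios were signed as strain over reference, and both spots of a probe were averaged. In limma 3.58.1 (R 4.3.3), 1 linear model with a mean for each strain took in all 16 arrays, with 18 two-sided contrasts and Benjamini-Hochberg adjustment over 6388 probes. "Above background" means a net signal over 3 background SD on an array.

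The 4 genes, and 9 lists with 67 entries of which 65 had a probe (ESS1 and KDX1 had none), were chosen with earlier results of these data known. Named genes were the members, FCP1, the nearest 2 annotated genes on each side, up to 3 called genes of a list in a comparison, and for each member the 3 probes most like it and the 1 most opposite; others are marked. Of named probes, 5324 matched RefSeq's R64 table, used for names and order; coordinates are not given because the platform's build is not named. Deviations from the strain means were correlated between all 28 pairs of arrays of the same letter (0.599 to 0.914, median 0.813), so letters pair the arrays, with dye orientation and letter coinciding. The fit was tested on simulated data for the average cdk8-del difference: 45 of 50 probes raised 2-fold, 42 of 50 lowered 2-fold, 50 of 50 lowered 4-fold, 0 of 50 raised by 0.58 on the log2 scale (under the fold limit) and 0 of 6188 unchanged ones were called. The changed probes were drawn from brighter ones and the noise had a fixed size. The rates therefore do not carry over to dim probes or to comparisons that rest on fewer arrays. Alternatives covered background correction, scaling, the deposited ratios, single spots, dim probes, the replicate block, left-out arrays, samples in the fit and the threshold. Figures were drawn with matplotlib 3.10.9 and pandas 2.3.3 under Python 3.11.15.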

Additional observations from a re-analysis of the deposited data

Results flagged for a closer look

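The cdk8-del difference of MET17, which marks strain background, was not the same in the 3 truncations that carry the SSN3 comparison. On the log2 scale it was 3.83 larger in 1:594 than in 1:609 (adjusted p = 1.66e-05 in limma), and the difference of 1:609 minus 1:666 was -4.18 (adjusted p = 6.69e-06), both tested as differences between effects. In the 1:609 pair the MET17 difference was 0.28 and not called, and SSN3 was below background in the deletion strain there as in the other 2.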

How the results depend on the processing

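The call on the average SSN3 difference held in all 27 alternatives run for it, with values from -3.57 (plain background subtraction) to -1.33 (external control scaling) on the log2 scale. With a filter on dim probes SSN3 was not tested. Median centring left the single differences without a call at -1.49 in 1:666, -1.58 in 1:609 and -1.87 in 1:594. Fitting only the 2 strains of a comparison did so at -1.53 in 1:609 (adjusted p = 0.0149) and -1.82 in 1:594 (adjusted p = 0.044), with fewer arrays in the fit. The SRB8 average turned to 0.092 under external control scaling, and its adjusted p ran from 0.00116 (replicate block) to 0.60 (deposited ratios). External control scaling moved the median of all genes by -0.50 to 0.33. The replicate block changed no call of a module gene. Bounds on SSN3 below the same truncation, from ratios to the reference (chosen after seeing the data), were 2.24, 2.80 and 3.18 in 1:666, 1:609 and 1:594. Calls among the neighbours rose from 0 to at most 8, under external control scaling, and were 1 or 2 in 6 other alternatives. Of 28 alternatives none called SSN8, SRB8 or SSN2. With 2 background SD as the limit, 1 array of 1:609 cdk8-del and 1 of 1:594 cdk8-del counted as above background and gave no bound; with 5 SD the bounds below the reference were 2.20, 2.95 and 3.39. Counts of called probes over the genome, of which the report gives shares, ranged as follows over the alternatives other than those that leave out 1 array. Against the reference they were 7 to 60 for fcp1-mut (15 in the report's fit), 10 to 21 for 1:713 (11), 23 to 237 for 1:666 (40), 155 to 1055 for 1:609 (199), 104 to 370 for 1:594 (144), 168 to 373 for 1:666 cdk8-del (250), 163 to 382 for 1:609 cdk8-del (238) and 198 to 423 for 1:594 cdk8-del (292). For cdk8-del they were 107 to 420 in 1:666 (255), 52 to 262 in 1:609 (104), 0 to 182 in 1:594 (137) and 132 to 279 for the average (173). Against 1:713 they were 0 to 12 for 1:666 (3), 36 to 285 for 1:609 (126) and 2 to 145 for 1:594 (81). Between cdk8-del effects they were 1 to 45 (1), 0 to 51 (10) and 1 to 54 (8). Fitting only the strains of a comparison, with fewer arrays in the fit, gave the lowest count for fcp1-mut against the reference and for cdk8-del in 1:594. It also did so for 1:609 and 1:594 against 1:713 and for the last difference between effects. Leaving out 1 array moved 1:666 against the reference to 21 (without its a array), cdk8-del in 1:609 to 66 (without the a array of 1:609 cdk8-del) and cdk8-del in 1:594 to 80 or 87 (without the a array of 1:594 or the b array of 1:594 cdk8-del). It moved counts of 10 or fewer to between 0 and 26. The cause of these shifts was not tested.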
